A study of Mus musculus with 15 samples.

Results

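The genes described here are 10 markers of Kupffer cells, the resident macrophages of the liver: Clec4f, Vsig4, Cd163, Cd5l, Fcna, C1qa, C1qb, C1qc, Marco and Timd4. They were chosen by name, as genes known to mark these cells in mouse liver, though with earlier results of these data known. Each was taken as the sum of its transcripts. All 10 were found among the 25731 genes of the table, and all 10 passed the filter on low counts that left 13967 genes for testing. RNA was sequenced in 15 whole-liver libraries of C57BL/6 mice, 5 after a ketogenic diet (KD), 5 after a high-fat diet (HFD) and 5 on chow (CD). KD and HFD were fed for 3 days at an age of 12 weeks, and the sources used here do not give the age of the CD mice. The labels describe no genetic change or drug in any group. They do not state that each library is a separate animal, so p-values measure the spread between these libraries. The study asked how a low-carbohydrate diet acts on liver fat and hepatic insulin resistance, and the comparisons here ask whether Kupffer cell transcripts differed after these few days.

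Kupffer cells line the liver sinusoids and take up particles, dying cells and worn red cells from portal blood. Their identity in mice is kept by signals from neighbouring sinusoidal endothelial and stellate cells, which include Notch ligands, TGF-beta family ligands and the growth factor CSF1, and by the transcription factors ID3, ZEB2, SPIC and LXR-alpha. In mice the C-type lectin Clec4f is nearly exclusive to them, while Timd4 is typical of Kupffer cells of embryonic origin and is slow to appear in cells that derive from monocytes. Several other markers encode proteins of the complement system, which coats particles for uptake.

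Values are normalised counts (CPM), the estimated reads of a gene scaled to library size after TMM adjustment between libraries. A gene was called where the adjusted p of edgeR's quasi-likelihood test was under 0.05, with Benjamini-Hochberg adjustment over all 13967 genes. Levels between genes are compared as TPM, a length-scaled share of transcripts. Liver was evident from hepatocyte markers, which summed to 90644 to 99544 CPM in KD livers, 73918 to 86647 CPM in HFD livers and 80998 to 95319 CPM in CD livers. The 10 Kupffer cell markers were detected in every liver, and their CPM summed to 163 to 235 in KD livers, 123 to 195 in HFD livers and 154 to 195 in CD livers. In whole-liver RNA, fewer Kupffer cells and less RNA per Kupffer cell cannot be told apart.

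Libraries held 34707597 to 50914494 estimated reads in KD livers, 30121672 to 44764257 in HFD livers and 30190806 to 43688344 in CD livers. Libraries differed within each diet. Over all genes, the chi-square per degree of freedom between CD liver 19 and the other CD livers was 52.3 to 104, against 17.1 to 41.1 among the other 4. HFD livers 12 and 14 were close to each other (22.2) and far from HFD livers 9 to 11 (66.5 to 90.9), and KD livers 2, 3 and 4 (19.1 to 31.9) were set apart from KD livers 6 and 8 (49.6 to 69.9 for pairs with either). HFD liver 14 had the highest TMM factor of all, 1.10, and the lowest hepatocyte marker sum, 73918 CPM. Its sums were also the highest of the 15 livers for dendritic cell markers, 102 CPM, and sinusoidal endothelial markers, 358 CPM. How the marker calls moved when single libraries were left out is given with the results.

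The promoter sequences of 4 markers are shown because these 4 were among the 5 that rose in KD against HFD livers. For Fcna, the other of the 5, the window reached into the annotated gene. Each is the 250 bases before the RefSeq transcription start (build GRCm38.p6), read 5′ to 3′ on the gene's strand. Capitals mark an ETS core (GGAAGT, or ACTTCC on the other strand), the kind of site bound by the macrophage factor PU.1, and a MAF core (TGCTGA, or TCAGCA on the other strand).
C1qb, chr4:136886201-136886450, minus strand: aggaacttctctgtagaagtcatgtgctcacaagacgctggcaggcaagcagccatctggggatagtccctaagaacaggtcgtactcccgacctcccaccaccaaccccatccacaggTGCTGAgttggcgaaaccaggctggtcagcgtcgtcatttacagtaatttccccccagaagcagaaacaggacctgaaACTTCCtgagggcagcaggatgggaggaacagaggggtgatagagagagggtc
Cd5l, chr3:87357631-87357880, plus strand: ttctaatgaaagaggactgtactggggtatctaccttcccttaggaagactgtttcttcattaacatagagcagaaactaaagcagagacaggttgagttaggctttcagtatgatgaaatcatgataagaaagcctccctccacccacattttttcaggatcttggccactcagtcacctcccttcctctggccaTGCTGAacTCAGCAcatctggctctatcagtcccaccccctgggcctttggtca
Vsig4, chrX:96293439-96293688, minus strand: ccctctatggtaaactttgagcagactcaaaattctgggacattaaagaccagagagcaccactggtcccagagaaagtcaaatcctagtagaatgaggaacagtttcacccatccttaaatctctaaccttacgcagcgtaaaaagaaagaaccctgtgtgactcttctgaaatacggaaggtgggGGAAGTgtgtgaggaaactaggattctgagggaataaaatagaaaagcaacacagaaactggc
Cd163, chr6:124304401-124304650, plus strand: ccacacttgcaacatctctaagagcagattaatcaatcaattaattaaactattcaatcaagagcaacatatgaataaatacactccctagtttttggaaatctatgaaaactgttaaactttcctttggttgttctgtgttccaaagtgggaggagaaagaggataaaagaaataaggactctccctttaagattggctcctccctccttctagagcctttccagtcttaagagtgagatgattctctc
C1qb held an ETS core that began 53 bases before the start and a MAF core at 131 bases. Cd5l held 2 MAF cores on opposite strands, at 54 and 46 bases, and no ETS core. Vsig4 held an ETS core at 63 bases, and the AT-rich window of Cd163 (36.8% G and C) held neither motif. The table had an entry for 9 of the 10 markers. An ETS core was present in 6 of these (C1qb, C1qc, Clec4f, Fcna, Timd4 and Vsig4), and in 19.74% of all 32851 windows of the same length. A MAF core was present in 5 (C1qb, Cd5l, Clec4f, Fcna and Timd4), and in 16.08% of all windows. Only 6 of the 9 windows held no base of the annotated gene. Those of C1qc, Clec4f and Fcna reached 151, 71 and 56 bases into it. The ETS cores of Clec4f and Fcna, 33 and 14 bases before the RefSeq start, lay in that part. How many of all windows reach into a gene was not counted, so these shares are descriptive. The 2 motifs share no base in these windows, and a match describes letters, not binding.

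Against CD livers, 1 Kupffer cell marker was called in KD livers, the scavenger receptor gene Cd163, with a 1.57-fold higher fitted level. Against HFD livers, 5 of the 10 were called higher in KD livers: Fcna, Vsig4, Cd163, C1qb and Cd5l. Between HFD and CD livers none was called.

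The background for these counts was high. In KD against CD livers 30.8% of all genes tested were called (16.2% rose and 14.6% fell), and 1 of 10 markers was called. In KD against HFD livers the background was 26.1% (13.1% rose and 13% fell), and 5 of 10 markers rose and 0 fell. HFD against CD livers had 15.6% called (8.3% rose and 7.32% fell), and 0 of 10 markers passed. There, 10.3% of all genes had no overlap between the diets, and 0 of the markers. For that comparison 2 markers, Vsig4 and Timd4, had an unadjusted p under 0.05 in edgeR, against 30.3% of all genes, and Vsig4 was called lower by both DESeq2 and limma-voom. The median log2 fold change of the 10 markers was 0.15 for KD against CD, 0.41 for KD against HFD and -0.25 for HFD against CD. On the TPM scale the split of calls over all genes changed to 4820 higher and 351 lower for KD against CD, against 2258 and 2038 on counts, and to 4953 and 204 for KD against HFD, against 1826 and 1818. The median over all genes on counts was -0.01, -0.02 and 0.01 in the order of the marker medians. Every pair of comparisons shares the 5 libraries of one diet, so the 3 sets of values are not independent. The 10 markers also varied together from liver to liver, so their calls are not independent of each other.

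**Figure D1:**
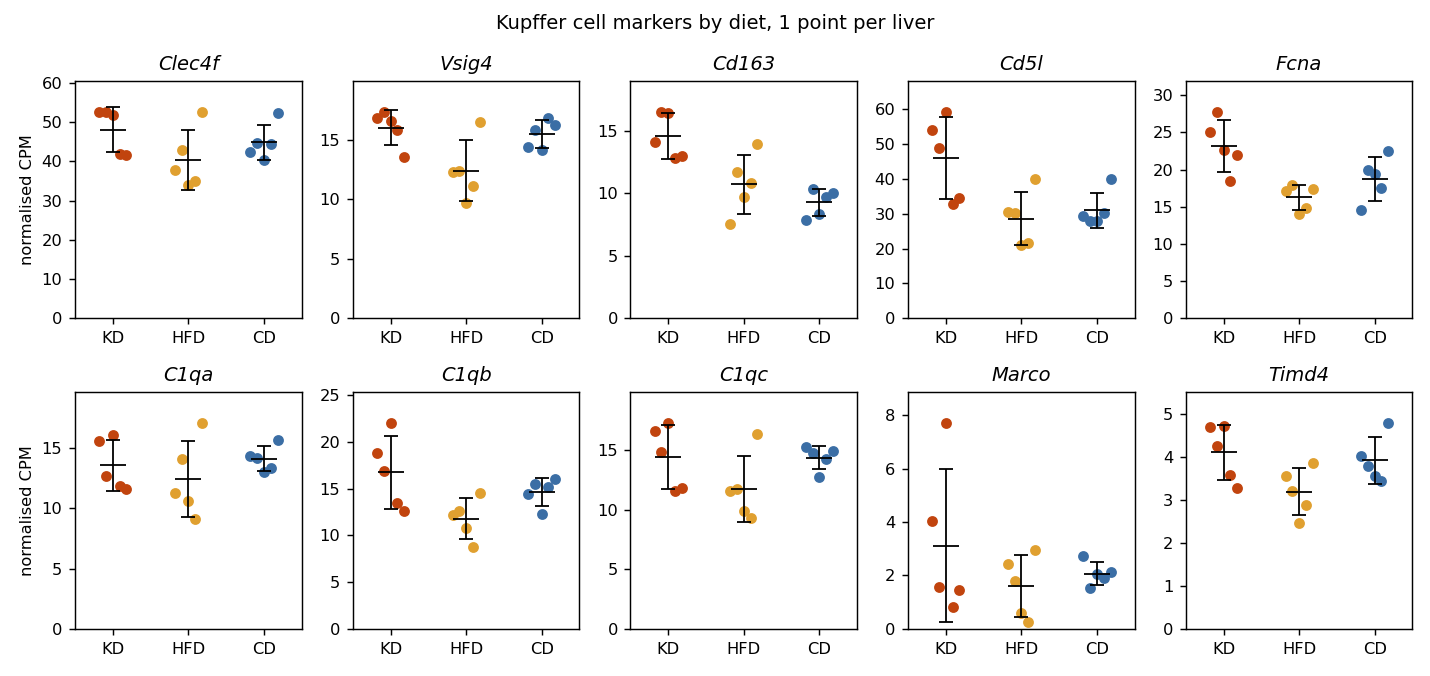
Normalised CPM of the 10 Kupffer cell markers (y axis, from 0) in KD, HFD and CD livers (x axis). Each point is 1 liver, the wide bar is the mean and the whiskers are the SD (n = 5). Cd163 in all 5 KD livers lay above all 5 CD livers, and Fcna in all 5 KD livers lay above all 5 HFD livers.

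Cd163 and Cd5l, whose products carry cysteine-rich domains of the scavenger receptor type, had the largest fitted differences for KD against CD among the markers other than the sparsely read Marco. Cd163 (ENSMUSG00000008845, chromosome 6, 124304656 to 124330527, plus strand, GRCm38) encodes the receptor that takes up haemoglobin bound to haptoglobin. It had 14.1, 16.5, 16.4, 12.8 and 12.96 CPM in KD livers, 7.50, 11.7, 9.68, 10.8 and 13.9 CPM in HFD livers, and 7.85, 10.4, 8.35, 9.72 and 10.1 CPM in CD livers. The lowest KD liver was above the highest CD liver, while the highest HFD liver, number 14, reached into the KD range. It was the only marker whose KD and CD livers did not overlap, and 22.3% of all genes tested did not overlap in that comparison. The log2 fold change of Cd163 was 0.65 ± 0.13 (SE) for KD against CD (adjusted p = 0.00123) and 0.44 ± 0.13 for KD against HFD (adjusted p = 0.0204). For HFD against CD it was 0.21 ± 0.14 (adjusted p = 0.322). The KD against CD call held in all 24 alternative settings, with adjusted p of 2.8e-05 to 0.00491. The KD against HFD call was lost without KD liver 3, KD liver 4 or HFD liver 11, where the highest adjusted p was 0.0547.

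Cd163 is annotated with 3 transcripts, of which one retains an intron. That transcript took 30.7 to 47.7% of the gene's estimated reads, with medians of 41.3% in KD livers, 42.1% in HFD livers and 40.2% in CD livers. With the protein-coding transcripts alone, a setting chosen after seeing the data, the log2 fold change was 0.72 for KD against CD (adjusted p = 0.00491). For KD against HFD it was 0.47 and the call was lost (adjusted p = 0.0572).

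Cd5l (ENSMUSG00000015854, chromosome 3, 87357881 to 87371073, plus strand) encodes a secreted protein, also named AIM, that circulates bound to IgM and is a known target of LXR in macrophages. It had 54.1, 48.9, 59.2, 32.9 and 34.5 CPM in KD livers, 30.4, 30.1, 21.1, 21.6 and 39.9 CPM in HFD livers, and 29.4, 27.8, 28.0, 30.2 and 39.8 CPM in CD livers. KD livers fell into 3 high values and 2 that overlapped the other diets. The log2 fold change was 0.68 ± 0.20 for KD against HFD (adjusted p = 0.0255), 0.57 ± 0.20 for KD against CD (adjusted p = 0.05004, just above the threshold) and -0.12 ± 0.21 for HFD against CD (adjusted p = 0.749). The KD against HFD call was lost without any one of KD livers 2, 3 and 4 and HFD livers 11 and 12 (highest adjusted p 0.0648), and in a fit of the KD and HFD libraries alone (adjusted p = 0.0529). KD against CD passed in 11 of the 24 alternatives, among them the fits without KD liver 6, KD liver 8, HFD liver 11, HFD liver 12, HFD liver 14 or CD liver 19 (lowest adjusted p among these 0.0245).

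**Figure D2:**
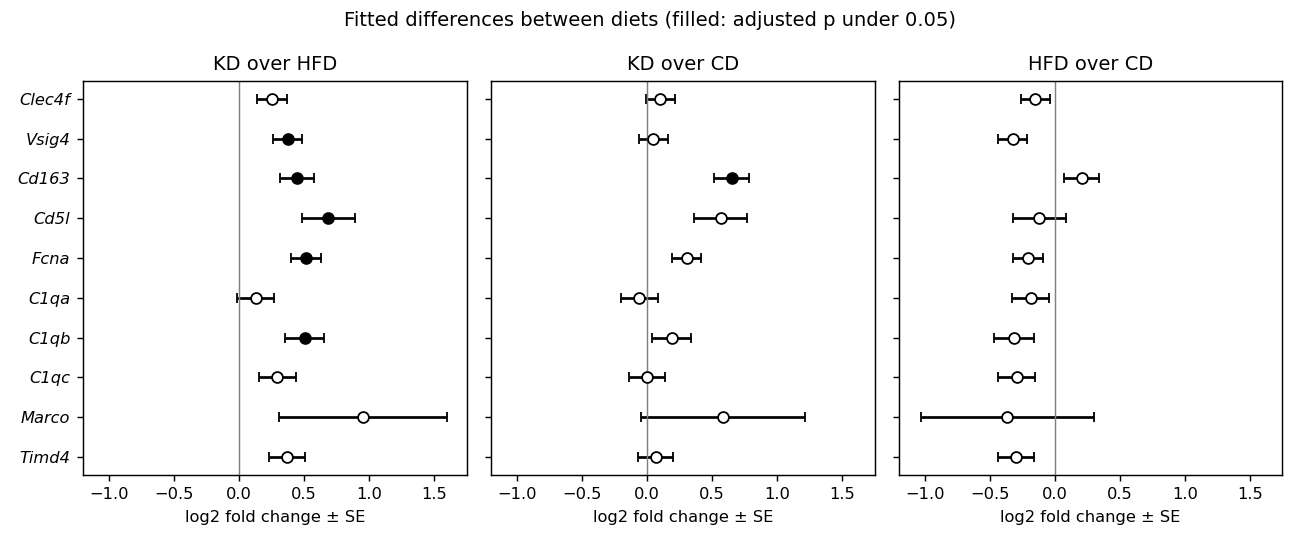
Fitted log2 fold changes (x axis) of the 10 markers (y axis) for KD over HFD, KD over CD and HFD over CD. Points are edgeR estimates, whiskers are 1 SE, and filled points have an adjusted p under 0.05. For KD over HFD all 10 estimates lay above 0 and 5 were filled, and for HFD over CD 9 lay below 0 and none was filled.

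The complement markers differed among themselves. Fcna (ENSMUSG00000026938, chromosome 2, 25624666 to 25628030, minus strand) encodes ficolin-A, a lectin that recognises sugars on particles and starts the lectin pathway. It had 25.004, 27.7, 22.7, 18.4 and 22.0 CPM in KD livers, 17.1, 17.9, 14.0, 14.8 and 17.4 CPM in HFD livers, and 14.6, 19.9, 19.4, 17.5 and 22.4 CPM in CD livers. All 5 KD livers were above all 5 HFD livers, whereas CD livers spanned both. It was the only marker without overlap between KD and HFD, where 17% of all genes tested had none. The log2 fold change was 0.51 ± 0.12 for KD against HFD (adjusted p = 0.00382), a call that held in all 24 alternatives (adjusted p 0.000212 to 0.0128). It was 0.30 ± 0.11 for KD against CD (adjusted p = 0.0531) and -0.21 ± 0.12 for HFD against CD (adjusted p = 0.243). KD against CD passed in 6 of the 24 alternatives. These were the fits without KD liver 6, HFD liver 11 or CD liver 19 (lowest adjusted p 0.0147), total-count scaling (adjusted p = 0.0332), DESeq2 (adjusted p = 0.0431) and the TPM scale (adjusted p = 0.00158). An annotated antisense gene, Fcnaos, overlaps Fcna and has no transcript in the table, so reads from the 2 strands cannot be told apart here.

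Vsig4 (ENSMUSG00000044206, chromosome X, 96247203 to 96293438, minus strand) encodes the receptor for the complement fragments C3b and iC3b. It had 16.8, 17.3, 16.6, 15.8 and 13.6 CPM in KD livers, 12.3, 12.4, 9.68, 11.1 and 16.5 CPM in HFD livers, and 14.4, 15.8, 14.1, 16.8 and 16.2 CPM in CD livers. In 4 of the 5 HFD livers it lay below every KD and CD liver, and HFD liver 14 lay within their range. The log2 fold change was 0.37 ± 0.11 for KD against HFD (adjusted p = 0.0181), 0.05 ± 0.11 for KD against CD (adjusted p = 0.772) and -0.32 ± 0.11 for HFD against CD (adjusted p = 0.0539). Without HFD liver 14 the HFD against CD value was -0.45 and passed (adjusted p = 0.00396), and it also passed without KD liver 8. Without HFD liver 11 the KD against HFD call was lost (adjusted p = 0.0520).

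C1qa, C1qb and C1qc encode the 3 chains of C1q, the recognition protein of the classical complement pathway. The genes lie side by side on the minus strand of chromosome 4, in the order C1qb (136880129 to 136886187), C1qc (136889804 to 136893065) and C1qa (136895917 to 136898803), with gaps of 3616 and 2851 bases. C1qb had 18.8, 16.9, 22.1, 13.4 and 12.6 CPM in KD livers, 12.2, 12.6, 10.8, 8.78 and 14.6 CPM in HFD livers, and 14.4, 15.5, 12.2, 15.1 and 16.1 CPM in CD livers. As for Cd5l, KD livers 2, 3 and 4 were high and KD livers 6 and 8 lay among the other diets. Its log2 fold change was 0.50 ± 0.15 for KD against HFD (adjusted p = 0.0218), 0.19 ± 0.15 for KD against CD (adjusted p = 0.367) and -0.31 ± 0.15 for HFD against CD (adjusted p = 0.176). The KD against HFD call was lost without KD liver 2, KD liver 4 or HFD liver 11 (highest adjusted p 0.0567).

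C1qa had 15.6, 12.7, 16.1, 11.8 and 11.6 CPM in KD livers, 11.3, 14.1, 10.6, 9.10 and 17.1 CPM in HFD livers, and 14.4, 14.2, 13.03, 13.4 and 15.7 CPM in CD livers. C1qc had 16.6, 14.9, 17.3, 11.6 and 11.8 CPM in KD livers, 11.6, 11.8, 9.93, 9.29 and 16.3 CPM in HFD livers, and 15.2, 14.8, 12.8, 14.2 and 15.0 CPM in CD livers. Both were tight in CD livers, with a coefficient of variation of 7.31% for C1qa and 6.84% for C1qc, and wider in KD and HFD livers, where it was 15.6 to 25.5%. For C1qa the log2 fold change was 0.13 ± 0.14 for KD against HFD (adjusted p = 0.552), -0.06 ± 0.14 for KD against CD (adjusted p = 0.793) and -0.18 ± 0.14 for HFD against CD (adjusted p = 0.413). For C1qc it was 0.29 ± 0.14 (adjusted p = 0.141), 0.00 ± 0.14 (adjusted p = 0.993) and -0.29 ± 0.14 (adjusted p = 0.180) in the same order. Without HFD liver 14, C1qc passed in both comparisons with HFD livers (log2 fold change 0.44 for KD against HFD and -0.44 for HFD against CD, adjusted p 0.0127 and 0.0223). The sign of KD against CD depended on the setting for C1qa, which was above 0 with total-count scaling and on the TPM scale, and for C1qc, which lay between -0.07 and 0.07 in the fits that left out 1 library.

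The 3 chains occur in equal numbers in the C1q protein, so their balance was compared within each liver as ratios of TPM. The ratio of C1qa to C1qb had a median of 0.862 (range 0.761 to 0.955) in KD livers, 1.09 (0.975 to 1.23) in HFD livers and 1.03 (0.925 to 1.12) in CD livers. KD and HFD livers did not overlap. The mean log2 ratio differed by -0.36 between KD and HFD livers (exact two-sided permutation test, p = 0.00794, the smallest that 5 against 5 allows) and by -0.25 between KD and CD livers (exact p = 0.0159). After adjustment over the 9 tests of chain ratios both had an adjusted p of 0.0536 and none of the 9 passed, with 5 of the 9 at an unadjusted exact p under 0.05. With 9 tests, a single ratio at the smallest possible p could not pass on its own. Without KD liver 8, 3 of the 9 passed (adjusted p = 0.0476). The ratio of C1qc to C1qb had a median of 0.755 in KD livers, 0.794 in HFD livers and 0.813 in CD livers.

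Clec4f (ENSMUSG00000014542, chromosome 6, 83644542 to 83656187, minus strand) encodes a C-type lectin that binds galactose-bearing glycans. Summed over its transcripts, it had the highest mean CPM and TPM of the markers in each diet. It had 52.6, 52.5, 51.9, 42.0 and 41.7 CPM in KD livers, 37.7, 43.0, 34.1, 34.9 and 52.6 CPM in HFD livers, and 42.3, 44.7, 40.4, 44.3 and 52.4 CPM in CD livers. The diets overlapped throughout, and the lowest 3 livers were all on HFD. Its log2 fold change was 0.25 ± 0.11 for KD against HFD (adjusted p = 0.112), 0.10 ± 0.11 for KD against CD (adjusted p = 0.536) and -0.15 ± 0.11 for HFD against CD (adjusted p = 0.408). Without HFD liver 14, KD against HFD was 0.36 and passed (adjusted p = 0.0109).

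Timd4 (ENSMUSG00000055546, chromosome 11, 46810800 to 46844332, plus strand), the receptor for phosphatidylserine on dying cells, had 4.70, 4.26, 4.72, 3.60 and 3.29 CPM in KD livers, 3.55, 3.21, 2.47, 2.88 and 3.87 CPM in HFD livers, and 4.04, 3.81, 3.55, 3.45 and 4.81 CPM in CD livers. Values of all 3 diets overlapped. The log2 fold change was 0.36 ± 0.14 for KD against HFD (adjusted p = 0.0603), 0.07 ± 0.14 for KD against CD (adjusted p = 0.758) and -0.30 ± 0.14 for HFD against CD (adjusted p = 0.159). KD against HFD passed without KD liver 6, KD liver 8 or HFD liver 14 (lowest adjusted p 0.0331), with DESeq2 (adjusted p = 0.0396) and on the TPM scale (adjusted p = 0.00691).

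Marco (ENSMUSG00000026390, chromosome 1, 120474538 to 120505024, minus strand), a scavenger receptor with a collagen-like stalk that binds bacteria, was the least abundant and by far the most variable. It had 171, 61, 283, 41 and 60 estimated reads in KD livers, 86, 60, 25, 8 and 97 in HFD livers, and 92, 66, 71, 65 and 62 in CD livers. The coefficient of variation of its CPM was 91.4% in KD livers and 72.4% in HFD livers, against 20.8% in CD livers. The log2 fold change was 0.95 ± 0.64 for KD against HFD (adjusted p = 0.310), 0.59 ± 0.63 for KD against CD (adjusted p = 0.533) and -0.37 ± 0.66 for HFD against CD (adjusted p = 0.760). KD liver 4 alone set the sign of KD against CD, which was -0.07 without it, so a difference in Marco was not detectable with this spread.

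On the TPM scale, summed over all transcripts of a gene, the markers fell into 3 tiers in CD livers. Clec4f led with 33.2 ± 1.81 TPM (SD, n = 5). Fcna (17.5 ± 3.04), Cd5l (16.4 ± 1.52), C1qa (15.6 ± 0.864), C1qb (15.5 ± 1.88), Vsig4 (13.1 ± 1.65) and C1qc (12.9 ± 1.23) followed, and each lay within 1 SD of its neighbour in that order except C1qb and Vsig4. Cd163 (2.74 ± 0.426), Timd4 (1.91 ± 0.0927) and Marco (1.17 ± 0.203) were low. In KD livers Clec4f was again first at 44.8 ± 7.25 TPM and Marco last at 2.29 ± 2.17 TPM, and Cd5l, at 31.0 ± 9.57 TPM, stood next to Clec4f. In HFD livers Clec4f had 29.8 ± 7.13 TPM, Cd5l 15.5 ± 6.02 TPM and Marco 0.945 ± 0.712 TPM. The Clec4f sums include a processed transcript of 608 bases, which took a median of 18.8% of the gene's estimated reads in CD livers. The protein-coding transcript has 2471 bases, and a read on a shorter transcript counts for more in TPM. TPM of the protein-coding transcript alone was not compared, so the lead of Clec4f applies to the sum only. TPM moves with the rest of the library, and on that scale the median of all genes was higher by 0.24 (log2) in KD than in both other diets.

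To set the markers against each other without library scaling, each was also divided by Clec4f in the same liver, as a ratio of estimated reads. These ratios were chosen after values were seen. Cd163 over Clec4f had a median of 0.311 (range 0.269 to 0.317) in KD livers, 0.272 (0.199 to 0.310) in HFD livers and 0.206 (0.186 to 0.232) in CD livers. KD and CD livers did not overlap, and the mean log2 ratio differed by 0.55 (exact two-sided permutation p = 0.00794). Cd5l over Clec4f had a median of 0.931 (range 0.783 to 1.14) in KD livers, 0.699 (0.619 to 0.805) in HFD livers and 0.691 (0.623 to 0.760) in CD livers. KD and CD livers again did not overlap, with a difference of 0.44 (exact p = 0.00794). After adjustment over all 27 such tests both had an adjusted p of 0.107, and none of the 27 passed, with 8 of the 27 at an unadjusted exact p under 0.05.

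**Figure D3:**
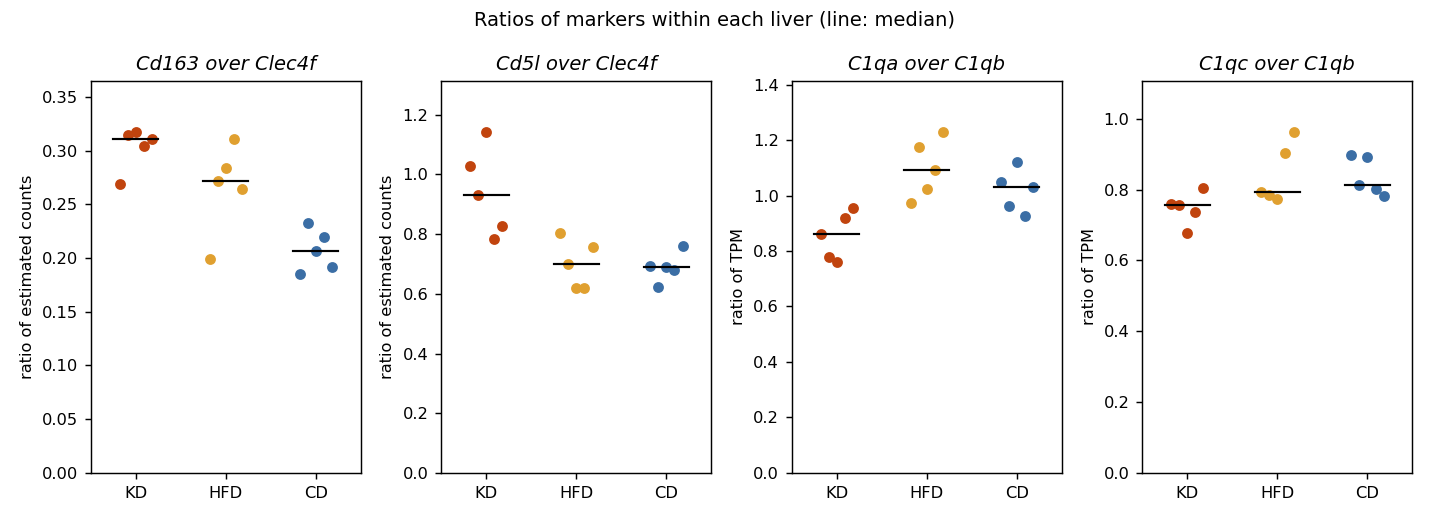
Ratios of markers within each liver (y axes, from 0) in KD, HFD and CD livers (x axis), as estimated reads for Cd163 and Cd5l over Clec4f and as TPM for C1qa and C1qc over C1qb. Each point is 1 liver and the line is the median of 5. Cd163 over Clec4f is 0.269 or more in all KD livers and 0.232 or less in all CD livers, while C1qa over C1qb is 0.955 or less in all KD livers and 0.975 or more in all HFD livers.

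Within a diet the markers varied together from liver to liver. Over the 15 livers, deviations of log2 CPM from the diet mean gave 45 pairs of markers with Pearson r of 0.16 (Cd163 and Marco) to 0.92 (Clec4f and Cd5l), a median of 0.74 and none below 0. These points share a library and its scaling factor, so the values are descriptive. The mean standardised deviation was 0.70, 0.40, 0.98, -1.05 and -1.03 in KD livers 2, 3, 4, 6 and 8. It was -0.01, 0.48, -1.08, -1.08 and 1.70 in HFD livers 9, 10, 11, 12 and 14, and between -0.52 and 0.78 in CD livers. KD livers 2 to 4 were high and KD livers 6 and 8 low for nearly all markers, and HFD liver 14 was the highest of its diet. The TMM factor moved with this in KD livers, at 1.05 to 1.07 in livers 2 to 4 against 0.991 and 0.9999 in livers 6 and 8. In the other diets it did not follow the deviations liver by liver. The factor was 0.931, 0.916, 0.970, 1.03 and 1.10 in HFD livers 9, 10, 11, 12 and 14. In CD livers 15 to 19 it was 0.942, 0.994, 0.988, 1.01 and 0.974, with the highest CD deviation in liver 19. The part of the TMM factor in the pattern was not tested.

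**Figure D4:**
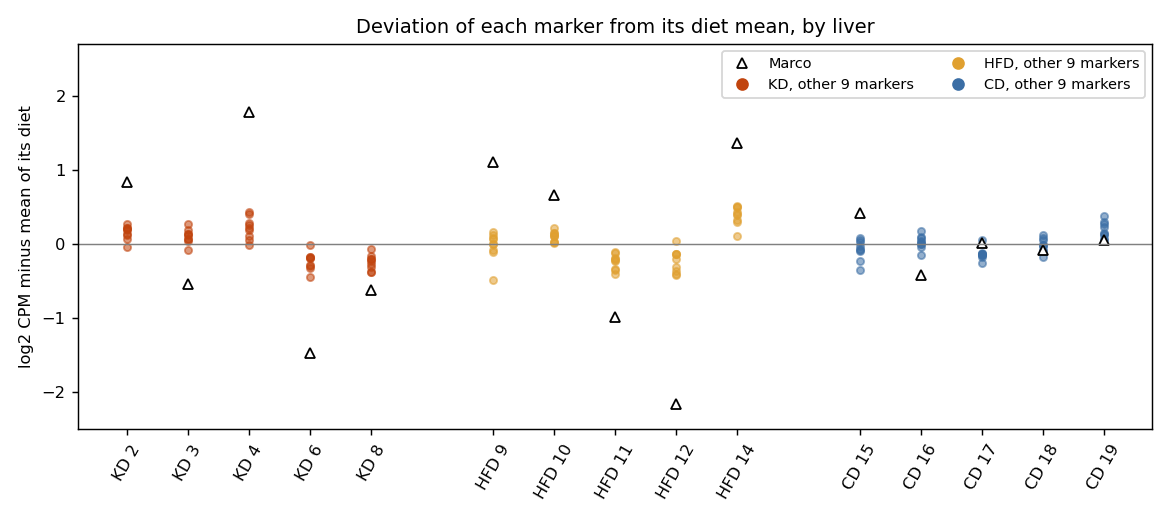
Deviation of each marker's log2 CPM from the mean of its diet (y axis) in each liver (x axis). Filled circles are the other 9 markers, coloured by diet, and open triangles are Marco. Circles lie mostly above 0 in KD livers 2, 3 and 4 and HFD liver 14, and mostly below 0 in KD livers 6 and 8 and HFD livers 11 and 12, and Marco spreads more widely than the rest.

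Among 11117 genes ranked, the 6 other genes whose deviations were most like the mean of the markers were Ctss (Pearson r = 0.96, Spearman rho = 0.96), Itgb2 (0.95 and 0.95), Cfp (0.95 and 0.93), Sdc3 (0.94 and 0.92), Adgre1 (0.94 and 0.91) and Cd44 (0.90 and 0.90), over 15 livers. Ctss encodes the lysosomal protease cathepsin S, Itgb2 the shared beta chain of leukocyte integrins, Cfp the complement regulator properdin, and Adgre1 the macrophage antigen F4/80. By diet, Adgre1 had a log2 fold change of 0.20 ± 0.17 for KD against HFD (adjusted p = 0.416) and -0.02 ± 0.17 for KD against CD (adjusted p = 0.955). For KD against HFD, Ctss had 0.32 ± 0.15 (adjusted p = 0.141), Sdc3 0.32 ± 0.13 (adjusted p = 0.089) and Cfp 0.24 ± 0.14 (adjusted p = 0.203). For KD against CD these were 0.08, 0.21 and 0.02 (adjusted p = 0.728, 0.260 and 0.923). Diet values of Itgb2 and Cd44 are not reported here.

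Of 14 further Kupffer cell genes, 3 rose and 0 fell in KD against CD livers, and the same 3 rose in KD against HFD livers. Over all genes, 30.8% were called for KD against CD, 26.1% for KD against HFD and 15.6% for HFD against CD. Hpgd, which inactivates prostaglandins, had a log2 fold change of 0.54 ± 0.12 for KD against CD (adjusted p = 0.00327) and 0.91 ± 0.13 for KD against HFD (adjusted p = 7.9e-05). Il18bp, which encodes a secreted inhibitor of interleukin-18, had 0.58 ± 0.13 in both (adjusted p = 0.00164 and 0.00252). The chemokine gene Ccl24 had 0.75 ± 0.26 for KD against CD (adjusted p = 0.0354) and 0.93 ± 0.26 for KD against HFD (adjusted p = 0.0143). The first of these 2 calls was lost without any one of KD livers 2, 3 and 4 and CD livers 15 to 18 (highest adjusted p 0.108). For HFD against CD only Nr1h3, which encodes LXR-alpha and is also made by hepatocytes, was called, at 0.18 ± 0.05 (adjusted p = 0.0219), and not without HFD liver 11 or CD liver 17 (highest adjusted p 0.0531), without a filter, in a fit of the 2 diets alone or on the TPM scale (adjusted p 0.0579 to 0.367). The median log2 fold change of these 14 genes was 0.08 for KD against CD, 0.30 for KD against HFD and -0.20 for HFD against CD.

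Of 19 genes shared by macrophages in general, 4 rose and 1 fell in KD against CD livers, where 30.8% of all genes were called. Maf, a transcription factor of macrophages, rose by 0.35 ± 0.10 (adjusted p = 0.0156), and Mertk, a receptor kinase for dying cells, by 0.40 ± 0.10 (adjusted p = 0.00538). The related kinase gene Axl had 0.31 ± 0.11 (adjusted p = 0.0444) and lost the call without any one of KD livers 2, 3 and 4 and CD livers 15, 16, 17 and 19 (highest adjusted p 0.110), with total-count scaling (adjusted p = 0.0524) and with a stricter filter (adjusted p = 0.0594). The lysozyme gene Lyz2 fell by 0.45 ± 0.14 (adjusted p = 0.0191) and missed the threshold without CD liver 19 (adjusted p = 0.0504), with total-count scaling (-0.38, adjusted p = 0.0707) and on the TPM scale (-0.13, adjusted p = 0.538). In KD against HFD livers 4 of the 19 genes on this list rose and 0 fell, and 13.1% of all genes rose and 13% fell. Axl (0.48 ± 0.11, adjusted p = 0.00517) and Maf (0.37 ± 0.10, adjusted p = 0.0146) were among them, with Msr1 (0.37 ± 0.13, adjusted p = 0.0377) and Laptm5 (0.38 ± 0.13, adjusted p = 0.0420) also called. Both of these were lost without any one of KD livers 2, 3 and 4 and HFD livers 10, 11 and 12, and Laptm5 also without HFD liver 9 (highest adjusted p 0.105 and 0.133). HFD livers had 1 lower call against CD livers, Fcer1g (-0.48 ± 0.13, adjusted p = 0.0159), and without 1 library there were 1 to 6 lower calls, the most without HFD liver 14. Fcer1g lost its call on the TPM scale (adjusted p = 0.150).

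The niche list held 15 genes, which were niche ligands, receptors and regulators and LXR-related genes such as Nr1h2 and Abcg1. In KD against CD livers 2 rose and 1 fell, and 30.8% of all genes were called. In KD against HFD livers 3 rose and 0 fell, and 26.1% of all genes were called. The TGF-beta family ligands Bmp10 and Gdf2 (BMP9), which signal through the receptor ALK1, rose against both other diets. Bmp10 had a log2 fold change of 0.72 ± 0.14 for KD against CD (adjusted p = 0.000729) and 0.79 ± 0.14 for KD against HFD (adjusted p = 0.000556). Gdf2 had 0.34 ± 0.09 in both (adjusted p = 0.00614 and 0.00751). All 4 calls held in the 24 alternatives. The LXR-beta gene Nr1h2 fell in KD against CD livers (-0.37, adjusted p = 0.00207), though on the TPM scale the value was -0.07 and the call was lost (adjusted p = 0.734). The LXR target Abcg1 rose in KD against HFD livers (0.51, adjusted p = 0.0392), a call lost without any one of KD livers 2, 3 and 4 and HFD livers 9 to 12 (highest adjusted p 0.118). None of the 15 genes was called for HFD against CD by edgeR, DESeq2 or limma-voom, and 1 had an unadjusted p under 0.05 in edgeR. The Kupffer cell factors Spic and Id3 did not pass in any comparison, with log2 fold changes of -0.60 to 0.36.

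Of 8 genes listed with the classical pathway, 2 rose and 0 fell in KD against CD livers, where 30.8% of all genes were called. The share of all genes was 26.1% for KD against HFD and 15.6% for HFD against CD. Among the classical pathway genes, C4b rose in KD against CD livers (0.47 ± 0.09, adjusted p = 0.000489). The protease genes C1ra and C1s1, whose products join C1q in the C1 complex, had -0.17 ± 0.07 and -0.09 ± 0.06 (adjusted p = 0.0851 and 0.267). In KD against HFD livers C3 rose (0.28 ± 0.09, adjusted p = 0.0339), a call lost without any one of KD livers 2, 3 and 4 and HFD livers 9 to 12 (highest adjusted p 0.0899). Against CD livers, C4b also rose in HFD livers (0.47 ± 0.09, adjusted p = 0.00204), a call lost on the TPM scale (0.32, adjusted p = 0.150). Of 6 lectin pathway genes tested, Mbl2, which encodes a mannose-binding lectin made by hepatocytes, fell in KD against CD livers (-0.71 ± 0.09, adjusted p = 1.1e-05) and in KD against HFD livers (-0.55 ± 0.09, adjusted p = 0.000264), the second of these calls being lost on the TPM scale (-0.24, adjusted p = 0.114). Its relative Mbl1 rose against HFD livers (0.37 ± 0.08, adjusted p = 0.00354), and the collectin genes Colec11 (0.36 ± 0.09, adjusted p = 0.00670) and Colec10 (0.39 ± 0.14, adjusted p = 0.0414) rose against CD livers. Colec10 lost its call without any one of KD livers 2, 3 and 8, HFD liver 9 and CD livers 15, 18 and 19 (highest adjusted p 0.106). None of the 6 was called for HFD against CD by edgeR, DESeq2 or limma-voom, and 0 had an unadjusted p under 0.05 in edgeR.

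Genes of lipid-associated macrophages did not move as 1 group. Shares called over all genes were 30.8% for KD against CD, 15.6% for HFD against CD and 26.1% for KD against HFD. Of 11 tested, Lgals3 rose in KD against CD livers (0.81 ± 0.20, adjusted p = 0.00556) and Fabp5, Cd9 and Lpl fell, Fabp5 by the most (-2.87 ± 0.33, adjusted p = 2.8e-05). In HFD against CD livers Fabp5 (-1.87 ± 0.31, adjusted p = 0.00204), Cd9, Lpl and Ctsd fell and none rose, Ctsd being lost without any one of HFD livers 10, 11, 12 and 14 and CD livers 15, 16 and 18 (highest adjusted p 0.106). In KD against HFD livers Ctsd (0.32 ± 0.07, adjusted p = 0.00415), Cd63 (0.81 ± 0.19, adjusted p = 0.00416) and Lgals3 (0.73 ± 0.20, adjusted p = 0.0127) rose. Fabp5 fell there (-0.998 ± 0.33, adjusted p = 0.0404), a call lost without any one of 8 libraries, KD livers 2, 3, 6 and 8 and HFD livers 9 to 12 (highest adjusted p 0.0871). Other liver cells also express these genes.

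Markers of other cells were called in some lists. The counts below stand against 30.8% of all genes called for KD against CD. That share was 26.1% for KD against HFD and 15.6% for HFD against CD. Neutrophil and dendritic cell markers gave no calls in any comparison with edgeR, DESeq2 or limma-voom (3 and 9 tested). At an unadjusted p under 0.05 in edgeR, 1 neutrophil marker differed for KD against HFD and 1 dendritic cell marker for KD against CD. Of 7 B cell markers, 6 fell in KD against CD livers (3 to 6 without 1 library), 4 fell in KD against HFD livers (2 to 4) and 1, Ighm, fell in HFD against CD livers (0 to 2). The immunoglobulin genes Igkc and Ighm had log2 fold changes of -1.64 ± 0.25 and -2.16 ± 0.38 for KD against CD (adjusted p = 8.4e-05 and 0.000687). Over all alternatives, 2 to 6 of the 7 fell in KD against CD livers, 1 to 4 in KD against HFD livers and 0 to 2 in HFD against CD livers. The summed level of all 7 B cell markers was 3.14 to 4.15 CPM in KD livers, 4.57 to 8.65 CPM in HFD livers and 5.83 to 16.2 CPM in CD livers. Of 11 monocyte genes 7 were tested, with sums of 6.42 to 10.1 CPM in KD livers, 4.66 to 6.72 CPM in HFD livers and 6.11 to 9.16 CPM in CD livers. Plac8 rose in KD against HFD livers (0.80 ± 0.17, adjusted p = 0.00220), as did Ly6c2 (0.99, adjusted p = 0.0232), which lost the call without KD liver 2, HFD liver 9 or HFD liver 10 (highest adjusted p 0.0723). Plac8 also passed for KD against CD (0.47 ± 0.17, adjusted p = 0.0416), but not without any one of KD livers 2, 3, 4 and 8 and CD livers 15, 17, 18 and 19 (highest adjusted p 0.134). Of 11 stellate cell markers, 4 rose in KD against CD livers (Hgf, Lum, Rgs5 and Dcn) and 3 rose in KD against HFD livers (Lum, Dcn and Hgf). Lum fell in HFD against CD livers (-0.47, adjusted p = 0.0234), but not without any one of HFD livers 10, 11 and 12 and CD liver 15 (highest adjusted p 0.0666), nor in a fit of the 2 diets alone (adjusted p = 0.0530) or on the TPM scale (adjusted p = 0.133). The KD against CD call of Dcn (0.26, adjusted p = 0.0360) was lost without any one of KD livers 2, 3 and 8 and CD livers 15, 17 and 18 and with the stricter filter (highest adjusted p 0.0950). Summed levels of the stellate cell markers were 285 to 352 CPM in KD livers, 244 to 313 CPM in HFD livers and 247 to 341 CPM in CD livers. Of 15 sinusoidal endothelial markers, Oit3 rose (0.49, adjusted p = 0.0295) and Egfl7 fell (-0.51, adjusted p = 0.0104) in KD against CD livers, and Stab1 (-0.35, adjusted p = 0.0111) and Egfl7 (-0.49, adjusted p = 0.0169) fell in KD against HFD livers. Stab1 rose in HFD against CD livers (0.35, adjusted p = 0.0188), and for KD against CD it had -0.00221 ± 0.09 (adjusted p = 0.989). Oit3 lost its call without any one of KD livers 2, 3 and 8 and CD livers 15, 18 and 19 (highest adjusted p 0.0730), and Stab1 lost its HFD against CD call without HFD liver 14 or CD liver 15 and in a fit of the 2 diets alone (highest adjusted p 0.0554). On the TPM scale the calls of Egfl7 and Stab1 were lost (adjusted p 0.384 to 0.725), and with total-count scaling those of Stab1 and that of Egfl7 for KD against HFD (adjusted p 0.0535 to 0.0898). Of 8 T and NK cell markers tested, Cd4 and Cd3d fell against both other diets in KD livers and none was called for HFD against CD. The T cell calls for KD against CD were lost on the TPM scale (adjusted p = 0.0918 for Cd4 and 0.363 for Cd3d), Cd3d's for KD against HFD too (adjusted p = 0.245), and Cd3d's for KD against CD without CD liver 16 or CD liver 19 (highest adjusted p 0.0518). Of 4 cholangiocyte markers tested, Sox9 fell in KD against HFD livers (-0.66, adjusted p = 0.0239). That call was lost without any one of KD livers 2, 3 and 4 and HFD livers 9 and 14 (adjusted p 0.0557 to 0.0593) and on the TPM scale (-0.26, adjusted p = 0.229). Of 9 hepatocyte markers, 1 rose and 2 fell in KD against CD livers, 2 rose and 1 fell in KD against HFD livers, and 1 rose and 2 fell in HFD against CD livers. No marker of these lists was at 0 in every library of a diet except the neutrophil genes Ngp in KD livers and Camp in HFD and CD livers. The part of other cells in the differences among the Kupffer cell markers was not tested.

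The count of called markers depended on single libraries. Calls over all genes moved as well. Without 1 library they numbered 2862 to 3943 for KD against HFD (3644 with all libraries). For KD against CD they numbered 3602 to 4441 (4296), and for HFD against CD 1507 to 2754 (2182). For the markers, the count in KD against HFD livers was 5. It was 1 without HFD liver 11 (Fcna), 2 without KD liver 4, 3 without KD liver 2 or KD liver 3, and 8 without HFD liver 14. In KD against CD livers the marker count was 1, and it was 3 without KD liver 6, HFD liver 11 or CD liver 19, and 2 without KD liver 8, HFD liver 12 or HFD liver 14. In HFD against CD livers it was 0, and it was 2 without HFD liver 14 (Vsig4 and C1qc, both lower) and 1 without KD liver 8 (Vsig4). For KD against HFD all 10 log2 fold changes were above 0, and none changed sign in any of the 24 alternatives. The markers varied together from liver to liver and the alternatives reuse the same libraries, so these signs are not independent results.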

How the data were processed

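Whole-liver total RNA came from a Trizol extraction, per the labels' protocols. The submitters' processing notes name Trimmomatic 0.36, kallisto 0.44, edgeR 3.28 and the build GRCm38.p6, without settings. The authors deposited 1 table per library with an estimated count and a TPM value for each of 106332 transcripts, per the file headers. GENCODE M21 placed 105734 of these transcripts in 25731 genes, and each gene's count is the rounded sum over its transcripts. Reads on unmatched transcripts, 0.184 to 0.223% of each library, were left out.

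Genes kept by filterByExpr (minimum count 10, total 15) were fitted in edgeR 4.0.16 (R 4.3.3) over all 15 libraries, with TMM factors, diet as the only term and robust quasi-likelihood dispersion. Each pair of diets was tested two-sided with Benjamini-Hochberg adjustment over 13967 genes. The alternatives were other scalings and tools (DESeq2 1.42.0, limma 3.58.1), other filters and libraries, and log2(TPM + 0.5). The edgeR steps were tested on simulated counts. Replicates of a diet differed by more than sampling noise in all 30 pairs (chi-square per degree of freedom 17.1 to 104). Chain ratios were tested by exact permutation. The 10 markers and the 15 other lists were chosen with earlier results of these data known. Named genes are the 10 markers, up to 3 called genes of each list and comparison, any gene needed to account for a count of 5 or fewer, and the 6 genes most like the markers within diets (log2 CPM with prior count 2, mean of at least 1 CPM). Spic, Id3, C1ra and C1s1 were added for their roles beside the markers. Some genes of the macrophage and classical pathway lists are not reported here.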

Additional observations from a re-analysis of the deposited data

Results flagged for a closer look

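The value of 1 library lay far from the other 4 of its diet in 3 of 66 groups examined, where chance flags about 1 in 20. Cd5l had 39.8 CPM in CD liver 19, against 27.8 to 30.2 CPM in the other CD livers. Vsig4 over Clec4f, as a ratio of estimated reads, was 0.376 in KD liver 6, against 0.319 to 0.330 in the other KD livers. Cd163 over Clec4f was 0.269 in KD liver 2, against 0.305 to 0.317 in the other KD livers, and still above every CD liver.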

How the results depend on the processing

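No paired analysis was possible because no replicate number recurs across the diets. The markers called in KD against CD livers numbered 3 with total-count scaling and with DESeq2, 2 with the stricter filter (50 reads in 5 libraries) and with only the 2 diets compared, 5 on the TPM scale and 1 to 3 when 1 library was left out. In HFD against CD livers 1 was called lower with RLE factors, DESeq2, limma-voom or the stricter filter, and 0 to 2 without 1 library. In KD against HFD livers 9 rose on the TPM scale, 6 with DESeq2 (Timd4 added), 4 with only the 2 diets compared, 4 with protein-coding transcripts, and 1 to 8 without 1 library. On the TPM scale, where the median gene shifted by 0.2385 (KD against CD), 0.2449 (KD against HFD) and 0.0092 (HFD against CD), calls over all genes were 4820 higher and 351 lower for KD against CD (2258 and 2038 in the main setting), 4953 and 204 for KD against HFD (1826 and 1818), and 123 and 354, 477 in all, for HFD against CD (1159 and 1023). Total-count scaling gave 1265 lower calls for KD against CD and 960 for KD against HFD. Lower calls for HFD against CD were 681 to 1313 without 1 library, the fewest without CD liver 15. The sign of KD against CD turned for C1qc with RLE factors (-0.000637), DESeq2 (-2.99944e-06), limma-voom (-0.0217), the stricter filter (-0.0167), only the 2 diets compared (-5.1e-05), protein-coding transcripts (-0.00165) and without 1 library (-0.0707 to 0.0707). It turned for C1qa with total-count scaling (0.0202) and TPM (0.219), for the hepatocyte gene Fgb on TPM (0.0738), and for Marco without 1 library (-0.0686 to 0.836). Passing chain ratios numbered 0 to 3 without 1 library, and the HFD against CD log2 difference then crossed 0 for C1qc over C1qb (-0.0418 to 0.0369) and Cd5l over Clec4f (-0.0361 to 0.0588). The cause of these changes was not tested. Marco had 8 to 283 reads a library.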
